A study of Mus musculus with 4 samples.

Results

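The genes described here are 40 genes of the endoplasmic reticulum (ER), the compartment in which secreted and membrane proteins are made, folded and sent on. They were taken by gene symbol from a fixed list, out of 32285 genes in the deposited count matrices. The list has no measured value as a criterion, although it was drawn up with earlier results of these data known. The symbol *Ddit3* stood on 2 rows, of which 1 held all of its counts and the other held 0, so both rows were summed. By role the list held 15 chaperones and folding enzymes, 1 collagen chaperone, 4 genes of ER-associated degradation, 6 stress sensors and transcription factors they act through, 5 genes of the stress response, 4 genes of the translocon and 5 genes of vesicle traffic.

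A cell that secretes much protein needs a large ER, and collagen is among the most demanding loads because its chains are modified, folded into a triple helix and packed into large carriers. When unfolded protein accumulates, the sensors IRE1, PERK and ATF6 start the unfolded protein response, in which XBP1, ATF4 and ATF6 raise the genes of chaperones, of export and of degradation, while DDIT3 (CHOP) and TRIB3 are linked to lasting stress. Mesenchymal cells that turn into cartilage, and plasma cells that secrete antibody, are textbook cases of cells that use this machinery heavily.

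RNA of single cells was captured in 10x droplets and sequenced from tibial muscle of *Nse-Bmp4* mice on a C57BL/6 background, 6 to 8 weeks old, in which a neuron specific enolase promoter drives *Bmp4* and which form heterotopic bone after muscle injury. There was 1 library from uninjured muscle (Uninjured) and 1 library for each time after cardiotoxin injury, at 1, 3 and 7 days (dpi). All 4 libraries carried the transgene, so none was a wild-type control, and each pooled 3 muscles, so no condition had a replicate and no test between conditions was possible. Library and condition therefore cannot be told apart in any comparison of time points. Intervals below are 95% intervals for counting error only.

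The libraries held 12031, 11722, 15160 and 23752 cells in the order Uninjured, 1, 3 and 7 dpi, with median counts of unique molecular identifiers (UMIs, 1 per captured transcript) of 8629, 5561.5, 4214 and 3083 per cell. After filtering, 10307, 9641, 12604 and 20300 cells remained. Any 2 libraries had from 30 to 95 barcodes in common. Cells were put into 17 classes by marker genes, each cell to the class with the largest share of its markers detected. Where that class was MSC lineage or chondrocyte-like, the number of cartilage markers decided instead. Such cells with at least 6 of 11 were called chondrocyte-like and the others MSC lineage. None of the 40 genes was among those markers. Levels are counts per 1000000 UMIs (CPM), taken from the pooled UMIs of all cells that a class had in a library. The MSC lineage class (*Prrx1*, *Pdgfra*, *Col1a1*, *Dcn* and other stromal markers, no *Ptprc*) held 8361, 3654, 6485 and 11638 cells with median UMIs of 9144, 7914.5, 5435 and 2884.5. *Pdgfra* was detected in 87.0%, 85.8%, 71.8% and 31.3% of these cells, so detection of this marker differed between libraries, as depth did. Its level, which is divided by the total, was 345, 496, 332 and 113 CPM. *Dcn* was at 18093, 14003, 8549 and 3051 CPM and *Col1a1* at 4726, 1742, 3972 and 13814 CPM, so levels of markers differed as well. The part of cell make-up, cell state or depth in this and in the differences below was not tested.

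Promoters of some of these genes carry known response elements. They are shown as a grouping of those genes by letters. Some motifs share letters, so a match does not assign a gene to 1 branch of the response. RefSeq promoter windows on GRCm38.p6, the 250 bases upstream of the RefSeq start, were found for 33 of the 40 genes. The 4 motifs searched on both strands were the ER stress response element, to which ATF6 binds and which holds CCAAT and CCACG with 9 bases between them, the ER stress response element II, which holds ATTGG and CCACG with 1 base between them, the unfolded protein response element TGACGTGG, known for XBP1, and the C/EBP-ATF response element TGATGNAA, known for ATF4 and DDIT3. The letters CGTGG in the unfolded protein response element are the reverse complement of CCACG in both ER stress response elements. The ER stress response element occurred in 8 of the 33 promoters and in 37 of all 32851 promoters in the table (0.113%). Its form II occurred in 1 of the 33 and in 10 of all promoters (0.0304%), the unfolded protein response element in 2 and in 185 (0.563%), and the C/EBP-ATF response element in 3 and in 1134 (3.45%). Members whose letters are not printed below had no match or no window. A match of letters is a description of the window and not a measured binding site.

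Whole windows are given for 3 genes whose levels in MSC lineage cells took different courses, *Calr* (chr8:84846932-84847181), *Herpud1* (chr8:94386179-94386428) and *Kdelr3* (chr15:79516158-79516407). They are written 5′ to 3′ on the strand of the gene, plus for *Herpud1* and *Kdelr3* and minus for *Calr*, with matches in capitals. They lie upstream of the RefSeq start, and the last 3 bases of the *Calr* window fall inside the gene as GENCODE M21 draws it. *Calr* had the ER stress response element and *Kdelr3* had the unfolded protein response element. *Herpud1* had the C/EBP-ATF response element and further downstream the ER stress response element II. The *Herpud1* window also ends in CCAAT, the spacing of the ER stress response element and CCAC. That window stops before the last letter of the element, so a match there could be neither called nor excluded.
*Calr* window: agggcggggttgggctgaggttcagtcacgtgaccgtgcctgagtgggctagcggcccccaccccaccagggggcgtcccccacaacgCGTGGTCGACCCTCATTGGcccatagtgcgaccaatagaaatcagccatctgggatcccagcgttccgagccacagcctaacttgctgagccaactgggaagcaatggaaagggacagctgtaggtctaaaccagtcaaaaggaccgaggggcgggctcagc
*Herpud1* window: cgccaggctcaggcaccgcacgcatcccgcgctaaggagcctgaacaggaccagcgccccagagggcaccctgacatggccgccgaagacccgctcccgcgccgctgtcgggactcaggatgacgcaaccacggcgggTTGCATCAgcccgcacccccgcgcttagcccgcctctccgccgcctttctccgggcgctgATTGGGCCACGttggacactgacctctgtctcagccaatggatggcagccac
*Kdelr3* window: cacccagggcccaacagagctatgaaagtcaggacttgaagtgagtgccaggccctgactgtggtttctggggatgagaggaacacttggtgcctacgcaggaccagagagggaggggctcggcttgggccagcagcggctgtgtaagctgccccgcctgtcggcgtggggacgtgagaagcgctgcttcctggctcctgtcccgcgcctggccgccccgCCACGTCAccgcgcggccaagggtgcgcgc

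The other 7 genes with the ER stress response element are shown with 5 bases on either side of the match in capitals. *Hsp90b1* had 2 matches. That of *Hspa5* lies upstream of the RefSeq start but inside the gene of GENCODE M21, which begins at chr2:34771970.
*Hspa5* (chr2:34772020-34772048): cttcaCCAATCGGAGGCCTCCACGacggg
*Hsp90b1* (chr10:86705633-86705661): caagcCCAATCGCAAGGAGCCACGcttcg
*Hsp90b1* (chr10:86705528-86705556): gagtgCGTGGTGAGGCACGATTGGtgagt
*Canx* (chr11:50325795-50325823): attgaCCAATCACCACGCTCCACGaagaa
*Pdia6* (chr12:17266486-17266514): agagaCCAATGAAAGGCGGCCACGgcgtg
*Dnajc3* (chr14:118937822-118937850): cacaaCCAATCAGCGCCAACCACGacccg
*Creld2* (chr15:88819515-88819543): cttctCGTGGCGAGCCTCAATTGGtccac
*Syvn1* (chr19:6046527-6046555): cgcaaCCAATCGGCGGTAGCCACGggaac

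The remaining matches of the unfolded protein response element (*Sec24d*) and of the C/EBP-ATF response element (*Asns* and *Chac1*) follow in the same form. Those of *Sec24d* and *Asns* also lie inside the GENCODE M21 gene.
*Sec24d* (chr3:123267465-123267482): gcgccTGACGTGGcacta
*Asns* (chr6:7693220-7693237): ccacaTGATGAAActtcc
*Chac1* (chr2:119351044-119351061): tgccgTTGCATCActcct

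In MSC lineage cells the summed level of the ER genes was higher in each library after injury, while single genes took different courses. The sum was 8021 CPM (8001 to 8041) in Uninjured, 11383 CPM (11346 to 11420) at 1 dpi, 12290 CPM (12261 to 12319) at 3 dpi and 11075 CPM (11047 to 11102) at 7 dpi. The injured libraries were all above Uninjured. Abundant genes weigh most in such a sum, and it does not say how many genes were higher. *Serpinh1* was at 1273 CPM in Uninjured and 2303 CPM at 7 dpi. *Hspa5*, also abundant, was at 926 and 725 CPM in the same libraries. As a share of the UMIs of each cell, the median was 0.774%, 1.03%, 0.993% and 1.06%, with quartiles of 0.644% to 0.913% in Uninjured and 0.812% to 1.30% at 1 dpi. By single gene, the highest of the 4 libraries was 1 dpi for 19 genes, 3 dpi for 14, 7 dpi for 6 and Uninjured for 1, *Herpud1*. No such count over all genes stands beside these, so they describe the members and do not set them apart from other genes. Those highest at 7 dpi include *Chac1*. The heat map of CPM shows the courses of 39 genes. *Chac1*, a glutathione-degrading enzyme induced through ATF4, had 4, 5, 38 and 42 UMIs in these cells and was left out of it.

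**Figure D1:**
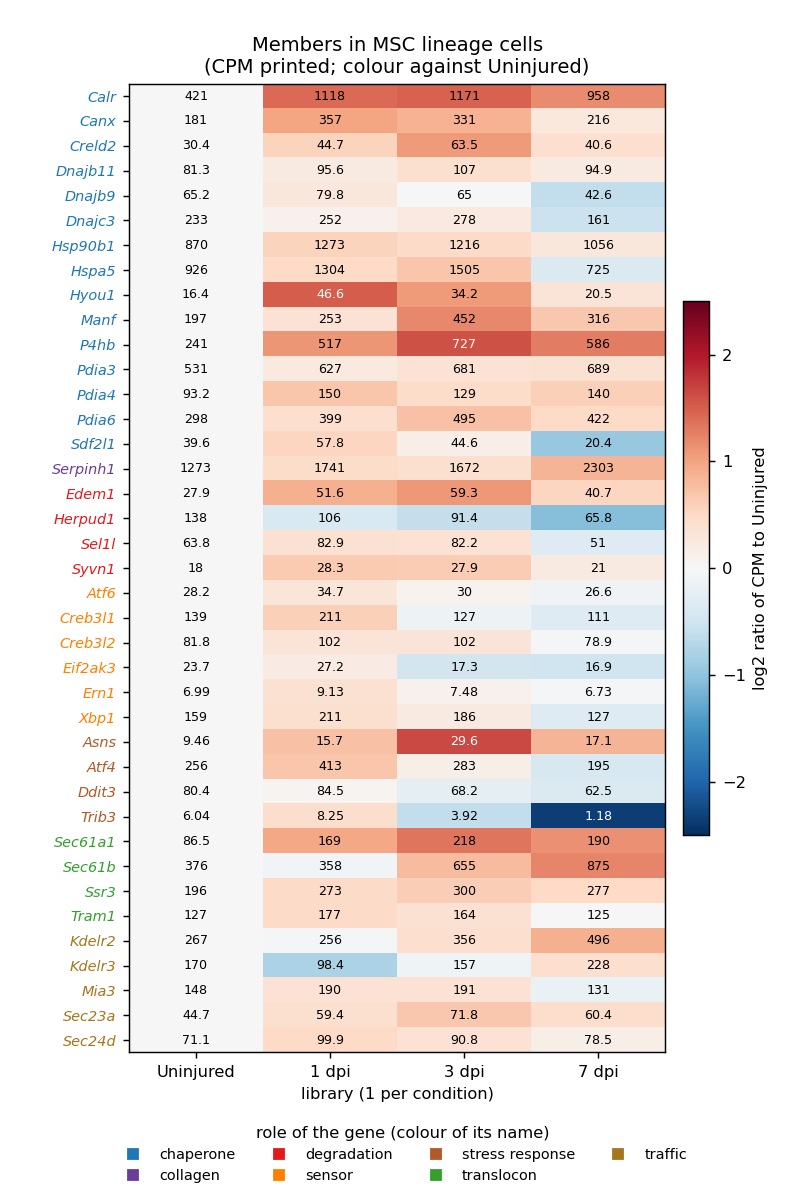
Level of 39 members in MSC lineage cells in each of the 4 libraries, printed in CPM. Colour gives the log2 ratio to Uninjured and the colour of a gene's name gives its role. Chaperones are mostly red at 1 and 3 dpi, while *Herpud1* is blue after injury and *Trib3* is darkest blue at 7 dpi.

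The 1 dpi against Uninjured comparison asks how the secretory apparatus of these cells stood 1 day after injury. Of 39 members with at least 100 UMIs over both libraries, 11 were at least 1.5-fold higher at 1 dpi (28.2%), against 20.1% of all 12766 genes with that minimum. In the other direction 1 member was lower (2.56%), against 9.91% of all genes. Their median log2 ratio was 0.45, against 0.16 for all genes. Since the median gene was itself shifted, counts were also taken relative to it, and then 6 members were higher and 1 lower. No share of all genes relative to the median gene stands beside these or later counts of that kind. They describe the members and do not set them apart from other genes.

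All 15 chaperones had a ratio above 1 at 1 dpi, as had 7807 of all 12766 genes, and 5 of them passed 1.5-fold (33.3%, against 20.1% of all genes). Relative to the median gene *Dnajc3* was at 0.967. *Calr*, encoding calreticulin, which holds new glycoproteins until they fold, was at 421, 1118, 1171 and 958 CPM in Uninjured, 1, 3 and 7 dpi. Its ratio at 1 dpi to Uninjured was 2.66 (2.62 to 2.70), or 2.38 relative to the median gene. *Hyou1*, a nucleotide exchange factor for the ER HSP70, was at 16.4, 46.6, 34.2 and 20.5 CPM, with a ratio of 2.84 (2.63 to 3.06). Both were lowest in Uninjured. *P4hb*, which is both protein disulfide isomerase and a subunit of the collagen prolyl 4-hydroxylase, stood at 241, 517, 727 and 586 CPM, with a ratio of 2.15 (2.10 to 2.19) at 1 dpi. The membrane lectin chaperone *Canx* was 1.98 times Uninjured (1.93 to 2.03), and the disulfide isomerase *Pdia4* 1.61 times (1.55 to 1.67), which was 1.44 relative to the median gene.

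The main ER HSP70, *Hspa5* (BiP), had a smaller ratio. It was at 926 CPM (919 to 933) in Uninjured, 1304 CPM (1292 to 1316) at 1 dpi, 1505 CPM (1495 to 1516) at 3 dpi and 725 CPM (718 to 732) at 7 dpi, so that 7 dpi lay below Uninjured and the 2 earlier injured libraries above it. At 1 dpi its ratio was 1.41 (1.39 to 1.43), close to the 1.46 (1.45 to 1.48) of *Hsp90b1*, the ER HSP90. Among the 8 genes with the ER stress response element, the ratio at 1 dpi ran from 1.08 for *Dnajc3*, a co-chaperone, to 2.66 for *Calr*.

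Degradation, translocon and traffic genes differed in direction at 1 dpi. *Edem1*, a lectin that passes misfolded glycoproteins on to degradation, was at 27.9, 51.6, 59.3 and 40.7 CPM, with a ratio of 1.85 (1.73 to 1.97) at 1 dpi. The ubiquitin ligase *Syvn1* had a ratio of 1.57 (1.45 to 1.71) and its partner *Sel1l* 1.30 (1.24 to 1.36). *Herpud1*, a membrane protein of the same degradation complex, was at 138, 106, 91.4 and 65.8 CPM, highest in Uninjured and lower in each later library. Of the translocon, *Sec61a1*, the pore itself, was 1.95 times Uninjured at 1 dpi (1.88 to 2.02), while *Sec61b*, a small subunit, was 0.952 times (0.932 to 0.973). *Kdelr3*, 1 of the receptors that return ER proteins from the Golgi, was the single member past 1.5-fold in the lower direction, at 170, 98.4, 157 and 228 CPM with a ratio of 0.577 (0.555 to 0.600) at 1 dpi.

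All 6 sensors and their transcription factors had ratios above 1 at 1 dpi, but 1 passed 1.5-fold (16.7%, against 20.1% of all genes) and relative to the median gene 0 did. *Atf6*, *Ern1* (IRE1) and *Eif2ak3* (PERK) had ratios of 1.23, 1.31 and 1.15 at 1 dpi, and *Xbp1* 1.33. *Creb3l1*, a transcription factor of the ATF6 type that is known for collagen secretion in bone, was at 139, 211, 127 and 111 CPM and so stood at 1.51 (1.47 to 1.56) times Uninjured in the 1 dpi library. *Atf4* was at 256, 413, 283 and 194.5 CPM, highest at 1 dpi with a ratio of 1.61 (1.58 to 1.65). *Ddit3*, its partner in lasting stress, was at 80.4, 84.5, 68.2 and 62.5 CPM, and its 1 dpi ratio of 1.05 (1.00 to 1.10) was 0.939 relative to the median gene. *Asns*, the asparagine synthetase gene known as an ATF4 target, was at 9.46, 15.7, 29.6 and 17.1 CPM, highest at 3 dpi.

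**Figure D2:**
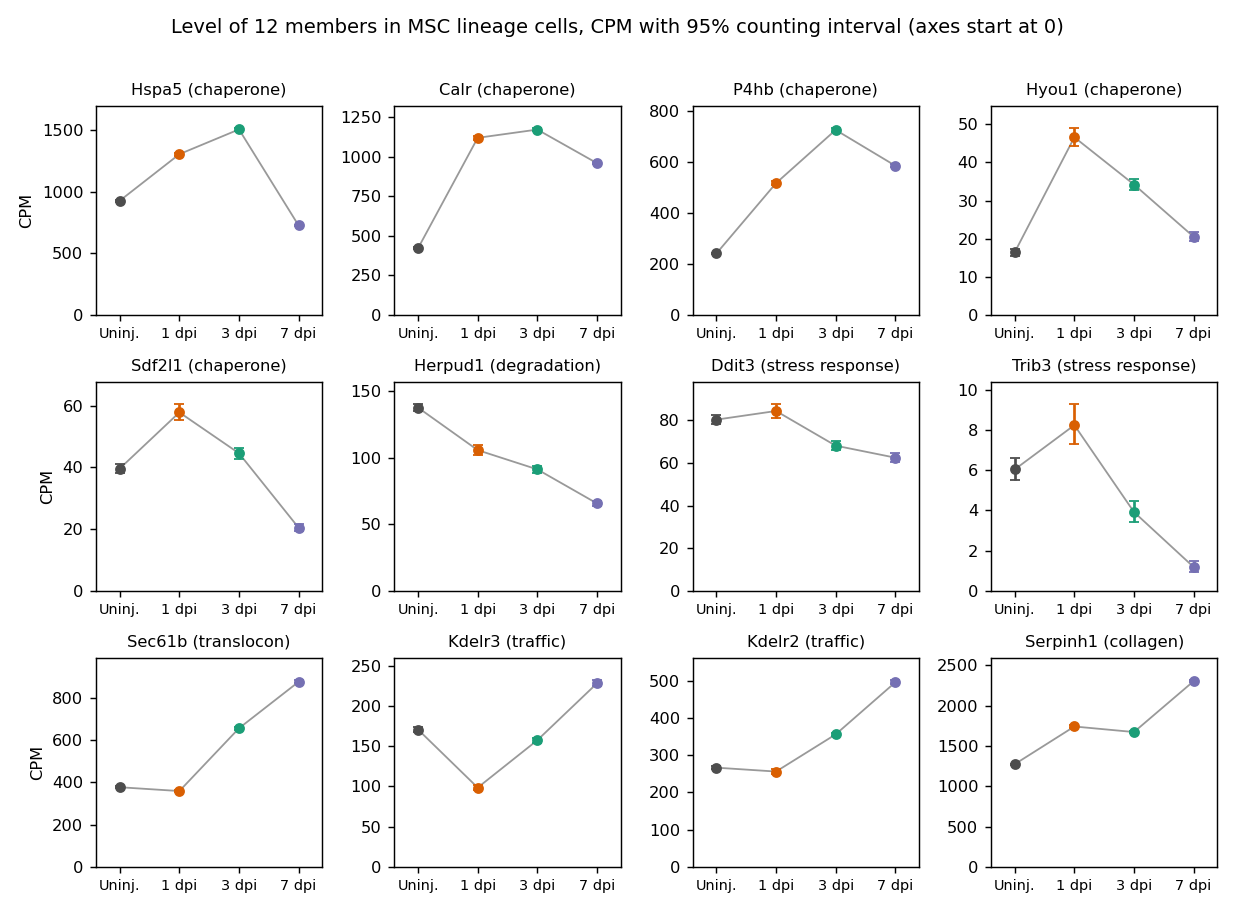
Level in CPM of 12 members in MSC lineage cells by library, with the 95% counting interval and each axis starting at 0. *Hspa5*, *Hyou1* and *Sdf2l1* peak at 1 or 3 dpi, *Herpud1* is lower in each later library, and *Sec61b*, *Kdelr2*, *Kdelr3* and *Serpinh1* are highest at 7 dpi.

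Between 1 and 3 dpi the summed level had a ratio of 1.08 (1.075 to 1.084), which was 0.984 when every cell was thinned to 1000 UMIs and 0.979 when every cell had equal weight, so its direction depended on how deep and shallow cells were weighted. Single genes differed more. Past 1.5-fold, 4 of 39 members were higher at 3 dpi (10.3%, against 12.4% of all genes) and 3 were lower (7.69%, against 14.6%). Higher were *Asns* with a ratio of 1.89, *Sec61b* with 1.83, *Manf* with 1.78 and *Kdelr3* with 1.60. *Manf* is a small secreted protein of the stressed ER and was at 197, 253, 452 and 316 CPM. Lower were *Trib3* with 0.475, *Creb3l1* with 0.602 and *Eif2ak3* with 0.636. *Trib3*, a pseudokinase induced through ATF4 and DDIT3, was at 6.04, 8.25, 3.92 and 1.18 CPM from 473, 270, 218 and 68 UMIs.

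From 3 to 7 dpi, when cartilage forms in this model, more members were lower than higher past 1.5-fold. Of 39 members 10 were at least 1.5-fold lower at 7 dpi (25.6%), against 16.7% of all 13344 genes counted, and 0 were higher, against 14.6%. Their median log2 ratio was −0.31, against −0.10 for all genes, and relative to the median gene 7 were lower and 1, *Kdelr3*, higher. The summed level had a ratio of 0.901 (0.898 to 0.904), which was 1.003 with thinned cells and 1.01 with equal weight per cell. The lower ones included 7 of the 15 chaperones and folding enzymes, which were the largest role on the list. These were *Sdf2l1* (0.458), *Hspa5* (0.481), *Dnajc3* (0.580), *Hyou1* (0.599), *Creld2* (0.639), *Canx* (0.653) and *Dnajb9* (0.655). The others were *Trib3* (0.302), *Asns* (0.577) and *Sel1l* (0.6205). *Hspa5* was the best measured of the lower members, with 83725 UMIs at 3 dpi and 41657 at 7 dpi. Summed by role, chaperones were at 4223, 6576, 7299 and 5489 CPM in the 4 libraries and the stress response genes at 352, 521, 386 and 276 CPM.

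*Sec61b*, *Kdelr2*, *Kdelr3* and *Serpinh1* were higher than at 3 dpi and highest of the 4 libraries at 7 dpi. *Sec61b* was at 376, 358, 655 and 875 CPM, *Kdelr2* at 267, 256, 356 and 496 CPM, and *Serpinh1* (HSP47), the collagen-specific chaperone, at 1273, 1741, 1672 and 2303 CPM. Their ratios from 3 to 7 dpi were 1.34 for *Sec61b*, 1.39 for *Kdelr2*, 1.45 for *Kdelr3* and 1.38 for *Serpinh1*, all below 1.5. The other translocon and traffic genes were lower at 7 than at 3 dpi, with ratios of 0.687 for *Mia3*, a receptor that loads collagen into carriers, 0.763 for *Tram1*, 0.841 for *Sec23a*, 0.865 for *Sec24d*, 0.873 for *Sec61a1* and 0.925 for *Ssr3*. Of the chaperones, *Pdia3* and *Pdia4* were at 1.01 and 1.09. With cells thinned to 1000 UMIs the same 4 genes stood at 1.622, 1.98, 1.74 and 1.53, and 4 members then counted as higher. The libraries differed in depth, and thinning left out 322 of 6485 cells at 3 dpi and 1067 of 11638 at 7 dpi as too shallow. *Col1a1*, the collagen chain that *Serpinh1* serves, was at 4726, 1742, 3972 and 13814 CPM in these cells.

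Set against Uninjured, the 7 dpi library had 9 members at least 1.5-fold higher (23.1%, against 22.7% of all genes) and 4 lower (10.3%, against 17.9%), both comparisons sharing libraries with those above. *P4hb* had a ratio of 2.43 (2.39 to 2.48), *Sec61b* 2.32 (2.29 to 2.36), *Calr* 2.28 (2.25 to 2.31) and *Sec61a1* 2.20 (2.13 to 2.27). On the lower side were *Trib3* with 0.196 (0.1496 to 0.253), *Herpud1* with 0.477 (0.460 to 0.495), *Sdf2l1* with 0.516 (0.482 to 0.552) and *Dnajb9* with 0.654 (0.623 to 0.686).

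Other genes of the same pathways, taken from lists outside the 40, were read at 1 dpi against the 20.1% of all genes higher and 9.91% lower. Of 31 further folding enzymes counted, 5 were higher than in Uninjured and 4 lower, with *Uggt1*, the glycoprotein folding sensor, at a ratio of 2.09 and *Fkbp7* at 0.579. Of 33 further translocon, signal peptidase and oligosaccharyltransferase genes, 4 were higher, among them *Rpn1* (2.01), and 8 lower, among them *Ost4* (0.565). Of 42 coat and cargo genes 4 were higher, among them *Sec23b* (2.17), and 6 lower, among them *Copz2* (0.524). Of 22 further degradation genes 3 were higher, among them *Vcp* (1.79), and 1 lower, *Erlec1* (0.578). Among 36 integrated stress response targets 9 were higher (25%) and 5 lower (13.9%), and the lower included *Atf3* (0.312) and *Nupr1* (0.440). Of 18 further sensors and regulators 3 were higher and 2 lower, with *Eif2ak2*, the interferon-induced kinase of the same substrate as PERK, at 2.94. The targets of the integrated stress response were the one list of these 6 with a share of higher genes above 20.1%. Their share of lower genes was also above the 9.91% of all genes. The summed level of that list was lower at 1 dpi, at 3530 CPM against 5798 CPM in Uninjured. Sums were also lower for the folding list (3009 against 3424 CPM) and the translocon list (4972 against 5886 CPM). The coat and cargo list was at 5297 against 5429 CPM. Sums were higher for the degradation list (1593 against 1477 CPM) and the sensor list (926 against 837 CPM). The higher sum of the 40 members was thus not shared by all lists of the pathway.

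At 3 dpi against 1 dpi, 5 of 31 further folding enzymes were higher (16.1%, against 12.4% of all genes) and 1 lower (3.23%, against 14.6%), led by *Fkbp11* at a ratio of 3.15. *Fkbp11* was at 190.8 CPM at 3 dpi and 60.5 CPM at 1 dpi. From 3 to 7 dpi the small translocon subunit *Sec61g* (1.82) and the oligosaccharyltransferase subunit *Tmem258* (2.46) were higher, while *Magt1* (0.533) and the signal peptidase subunit *Spcs3* (0.556) were lower, and 5 of 33 genes of that list were higher (15.2%, against 14.6% of all genes) and 3 lower (9.09%, against 16.7%). Cytosolic heat shock genes, which answer to unfolded protein outside the ER, had 11 of 16 lower at 7 dpi than at 3 dpi (68.8%, against 16.7% of all genes) and 0 higher. *Hsp90aa1* had a ratio of 0.510 there and *Hsph1* 0.499, near the 0.481 of *Hspa5*. Immediate early genes that tissue dissociation is known to induce had summed levels of 34997, 23231, 13765 and 11960 CPM, lower in each later library. *Atf3* stands both on this list and on that of the integrated stress response targets. The part of dissociation in the ER gene levels was not tested.

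At 7 dpi 4147 cells were chondrocyte-like, defined as mesenchymal cells with at least 6 of 11 cartilage markers (*Col2a1* in 97.8% and *Acan* in 96.7% of them). No other library held any. The limit was set after the values had been seen. It had 796 of the chondrocyte-like cells exactly at it, and 1976 MSC lineage cells with 4 or 5 of the markers lay just below. The question here was whether cells that had started cartilage matrix carried more of the ER genes than the MSC lineage cells beside them. Their summed level was 11907 CPM (11863 to 11951) against 11075 CPM, a ratio of 1.08 (1.070 to 1.080), with median UMIs per cell of 3838 and 2884.5. None of 38 members counted passed 1.5-fold in either direction, against 5.5% of all 12880 genes higher and 12.7% lower. Their median log2 ratio was 0.07, against −0.13 for all genes.

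Members of 1 role lay on both sides of 1, chaperones and sensors among them. Highest was *Creb3l2*, a transcription factor of the ATF6 type known for cartilage secretion, at 109 CPM in chondrocyte-like and 78.9 CPM in MSC lineage cells, a ratio of 1.38 (1.32 to 1.45), or 1.51 relative to the median gene. *Asns* followed with 1.34 (1.20 to 1.49), *Creld2*, a disulfide isomerase, with 1.33 (1.24 to 1.42), and *Kdelr2* with 1.27 (1.246 to 1.296). *Ssr3*, a subunit of the translocon-associated protein complex, had 1.22 and *Sec23a*, a coat protein of ER export, 1.18. *Sdf2l1* with 0.822 (0.732 to 0.922) and *Xbp1* with 0.884 (0.846 to 0.925) were lowest. *Hspa5* had 0.950 and *Serpinh1* 1.11. By role the ratio of summed levels was 1.16 for traffic, 1.13 for the translocon, 1.121 for the stress response, 1.03 for chaperones, 1.02 for sensors and 0.983 for degradation.

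**Figure D3:**
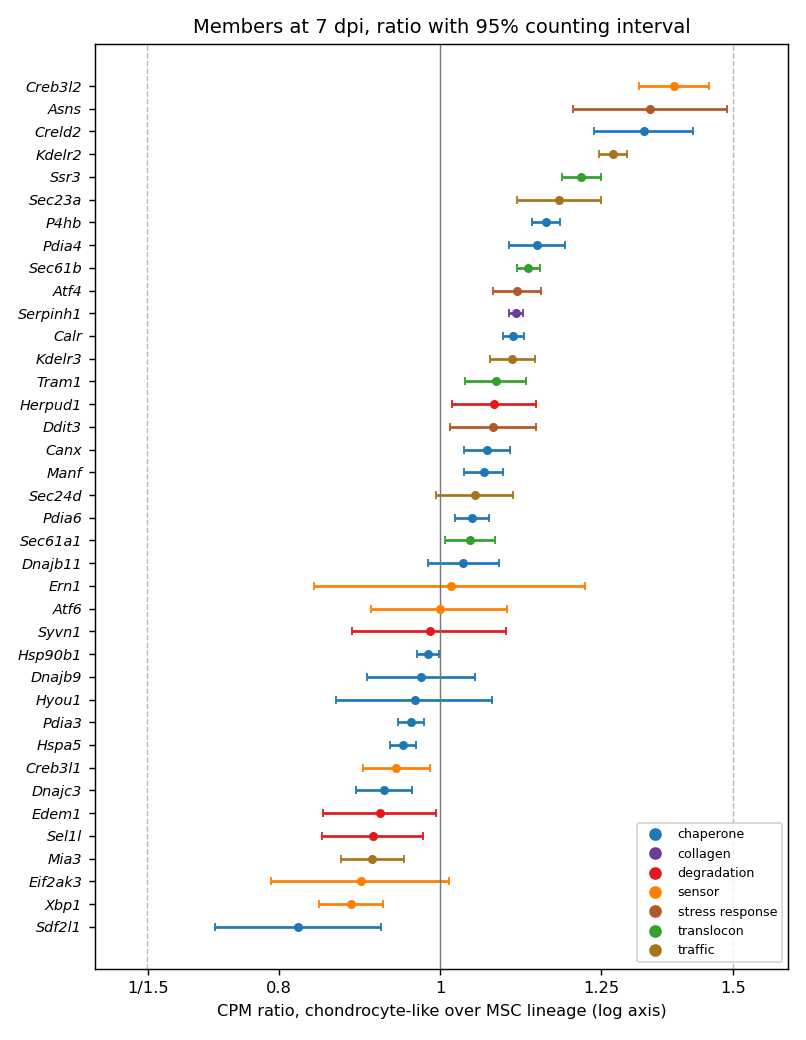
Ratio of CPM in chondrocyte-like to MSC lineage cells at 7 dpi for 38 members, with 95% counting intervals on a log axis, coloured by role. Dashed lines mark 1.5-fold in each direction, and all 38 points lie between them, from *Sdf2l1* at 0.822 to *Creb3l2* at 1.38.

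Along the number of cartilage markers detected, the summed level was 10868 CPM in 7992 cells with 0 to 2 markers, 11350 CPM in 3646 cells with 3 to 5, 11465 CPM in 2485 cells with 6 to 8 and 12368 CPM in 1662 cells with 9 to 11. Median UMIs per cell in these bins were 2421.5, 4464.5, 3203 and 4980.5, so the number of markers and depth moved together in part. *Creb3l2* was at 77.6, 80.5, 90.9 and 128 CPM and *Creld2* at 38.7, 43.2, 44.6 and 63.5 CPM, both highest in the cells with most markers. *Hspa5* was at 714, 740, 692 and 685 CPM, within a narrow range. Chondrocyte-like cells with hypertrophic markers numbered 1068 and had 12636 CPM, against 11688 CPM in the 3028 without *Col10a1*. None of 38 members passed 1.5-fold between them (3.58% of all genes were higher and 2.62% lower), with *Hyou1* highest of those counted at 1.35 (1.10 to 1.65). Within the MSC lineage class, 2842 cells with osteochondral progenitor markers had 11784 CPM and 4921 cells with 0 or 1 of them 10015 CPM, at median UMIs of 6419 and 1966. Of 38 members 1 was higher, *Sec61b* with 1.51 (1.47 to 1.54), against 4.51% of all genes, and 0 lower, against 13%.

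Across classes the summed level was highest in plasma, tenocyte-like and chondrocyte-like cells and in MSC lineage cells after injury. Plasma cells had 13443, 10386, 11244 and 9988 CPM, from 5, 18, 17 and 8 cells, and tenocyte-like cells 9258, 11932, 11103 and 10306 CPM, from 49, 21, 38 and 131 cells. Granulocyte progenitors, with 7649 and 8569 CPM at 1 and 3 dpi, and plasmacytoid dendritic cells, with 7191 and 8085 CPM, came near the 8021 CPM of MSC lineage cells in Uninjured. Neutrophils were the lowest of the classes in each library, at 2467 to 3131 CPM. T cells had 2830 to 4159 CPM and myogenic cells 3912 to 6143 CPM. Pericytes and smooth muscle cells went from 3045 CPM (112 cells) in Uninjured to 7161 CPM (297 cells) at 7 dpi. Markers of that class differed as well. The pericyte marker *Rgs5* was detected in 20.5% and 80.8% of its cells, *Myh11* of smooth muscle was at 6466 and 1576 CPM, and *Col1a1* at 98.6 and 3267 CPM, and the part of these in the summed level was not tested.

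**Figure D4:**
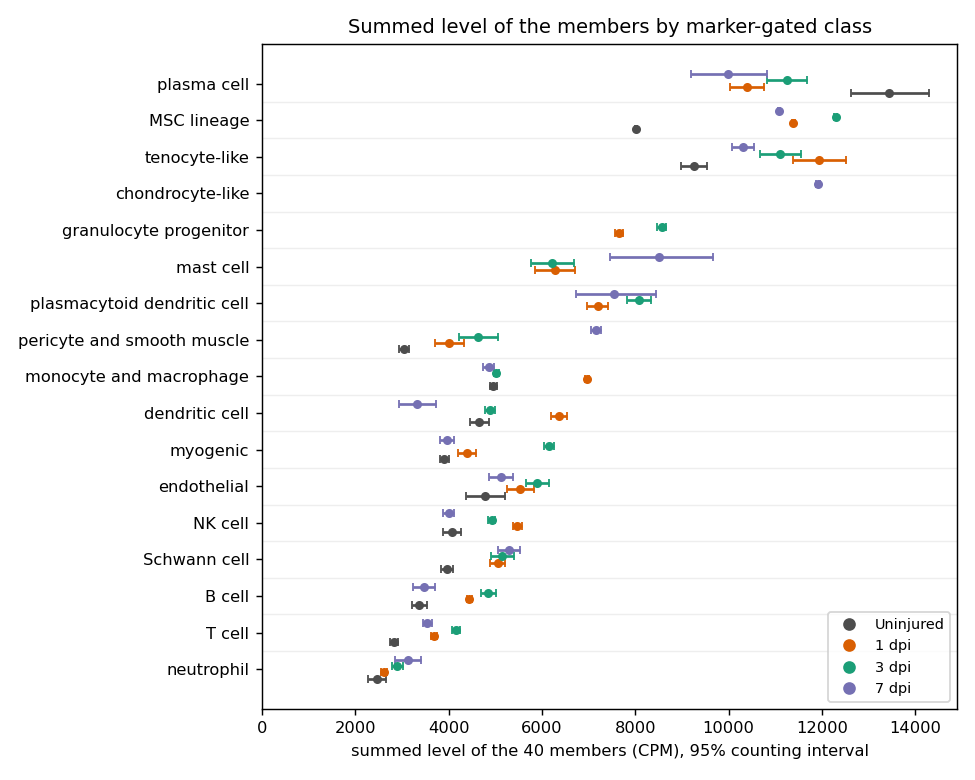
Summed level of the 40 members in CPM for each class and library with at least 5 cells, with 95% counting intervals. MSC lineage cells after injury and chondrocyte-like, tenocyte-like and plasma cells lie furthest right. In MSC lineage cells Uninjured is lowest, and in monocytes and macrophages 1 dpi, at 6955, stands above the other 3 libraries. Dendritic and NK cells are also highest at 1 dpi.

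RNA from broken cells can enter other droplets, so the strongly mesenchymal *Serpinh1* was set against *Col1a1*, which immune cells should lack. Broken cells can be of any class, and the classes differed in the ratio of these genes. Myogenic cells in Uninjured had 747 UMIs of *Serpinh1* per 100 UMIs of *Col1a1*, so the ratios below are given as a description. In Uninjured, T cells had 28.0 UMIs of *Serpinh1* per 100 UMIs of *Col1a1*, NK cells 21.1 and monocytes and macrophages 18.2, against 26.9 in MSC lineage cells. At 7 dpi the same classes had 16.7, 10.6 and 19.0, against 16.7 in MSC lineage cells. *Hspa5* per 100 UMIs of *Col1a1* was 745, 570 and 1270 in these classes in Uninjured, against 19.6 in MSC lineage cells. At 1 and 3 dpi monocytes and macrophages had 65.1 and 38.9 UMIs of *Serpinh1* per 100 of *Col1a1*, against 99.95 and 42.1 in MSC lineage cells. At 1 dpi NK cells had 94.1, neutrophils 67.9 and T cells 56.5. Other values were 44.7 in B cells in Uninjured, and 150 in dendritic and 567 in plasmacytoid dendritic cells at 1 dpi. The part of free RNA in the *Serpinh1* of immune classes was not tested, and no difference in it is read here as one between those cells.

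Monocytes and macrophages numbered 328, 1773, 1068 and 291, and here 1 dpi stood apart. Detection of markers of this class differed between libraries too. *Fcgr1* was detected in 35.7%, 82.1%, 53.6% and 49.1% of its cells and *Ccr2* in 93.6%, 75.3%, 82.4% and 81.1%. The part of cell make-up or cell state in this and in the differences below was not tested. Their summed level was 4959 CPM (4876 to 5042), 6955 CPM (6912 to 6999), 5022 CPM (4963 to 5081) and 4855 CPM (4738 to 4975), so that 3 and 7 dpi were close to Uninjured. Dendritic cells were also highest at 1 dpi, at 4651, 6360, 4888 and 3315 CPM. So were NK cells, at 4063, 5469, 4919 and 3998 CPM, while T and B cells were highest at 3 dpi. Detection of B cell markers differed between 1 and 3 dpi, with *Ms4a1* in 76.9% and 46.1% of B cells and *Vpreb3* in 50.3% and 67.4%. The part of cell make-up in the levels of B cells was not tested. In monocytes and macrophages at 1 dpi, 15 of 36 members were at least 1.5-fold higher than in Uninjured (41.7%, against 31.3% of 8373 genes) and 2 were lower (5.56%, against 9.59%). The median log2 ratio was 0.53 for the members and 0.24 for all genes, and relative to the median gene 9 were higher and 2 lower.

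Summed by role, the stress response genes among the members had a larger ratio at 1 dpi in these cells than the chaperones had. *Ddit3* was at 65.7 CPM in Uninjured, 154.5 CPM at 1 dpi and 79.1 CPM at 3 dpi, a ratio of 2.35 (2.02 to 2.75) at 1 dpi, and *Atf4* went from 199 to 384 CPM, a ratio of 1.93 (1.77 to 2.11). Summed over the role, the stress response genes had a ratio of 2.04 (1.89 to 2.21) and the chaperones 1.44 (1.41 to 1.48). *Ddit3* and *Atf4* held most of the UMIs of the 5 stress response genes. The list of integrated stress response targets outside the members went the other way in these cells, at 8981 CPM in Uninjured and 6647 CPM at 1 dpi. It shares *Atf3* with the list of immediate early genes. In the same order, the folding list was at 1988 and 1867 CPM and the translocon list at 4439 and 3584 CPM. The coat and cargo, degradation and sensor lists were higher at 1 dpi. *Calr* was 2.42 times Uninjured (2.26 to 2.59), *Hyou1* 1.996 times (1.53 to 2.65), *Syvn1* 2.66 times (1.77 to 4.16) and *Hspa5* 1.56 times (1.501 to 1.63). Lower were *Creb3l2* with 0.514 (0.333 to 0.811), from 30 and 78 UMIs, and *Sdf2l1* with 0.6666 (0.596 to 0.747). With cells thinned to 1000 UMIs in 1 random draw *Sdf2l1* stood at 0.567, and *Creb3l2* at 0.482 but below the minimum of 100 UMIs, while 8 members were higher in place of 15. *Sdf2l1*, a subunit of a chaperone complex with BiP, was at 145, 96.7, 78.6 and 106 CPM in these cells.

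From 1 to 3 dpi 9 of 36 members were lower in monocytes and macrophages (25%, against 10.6% of all genes) and 1 was higher (2.78%, against 10.7%). *Hyou1* had a ratio of 0.422, *Creb3l1* 0.469, *Ddit3* 0.512, *Creld2* 0.558 and *Hspa5* 0.575. The higher one was *Serpinh1*, at 33.9 CPM at 3 dpi and 17.1 CPM at 1 dpi, beside *Col1a1* at 87.1 and 26.3 CPM in the same cells. The 1 dpi library was shared by this comparison and the one before it, so a high value there enters both.

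**Figure D5:**
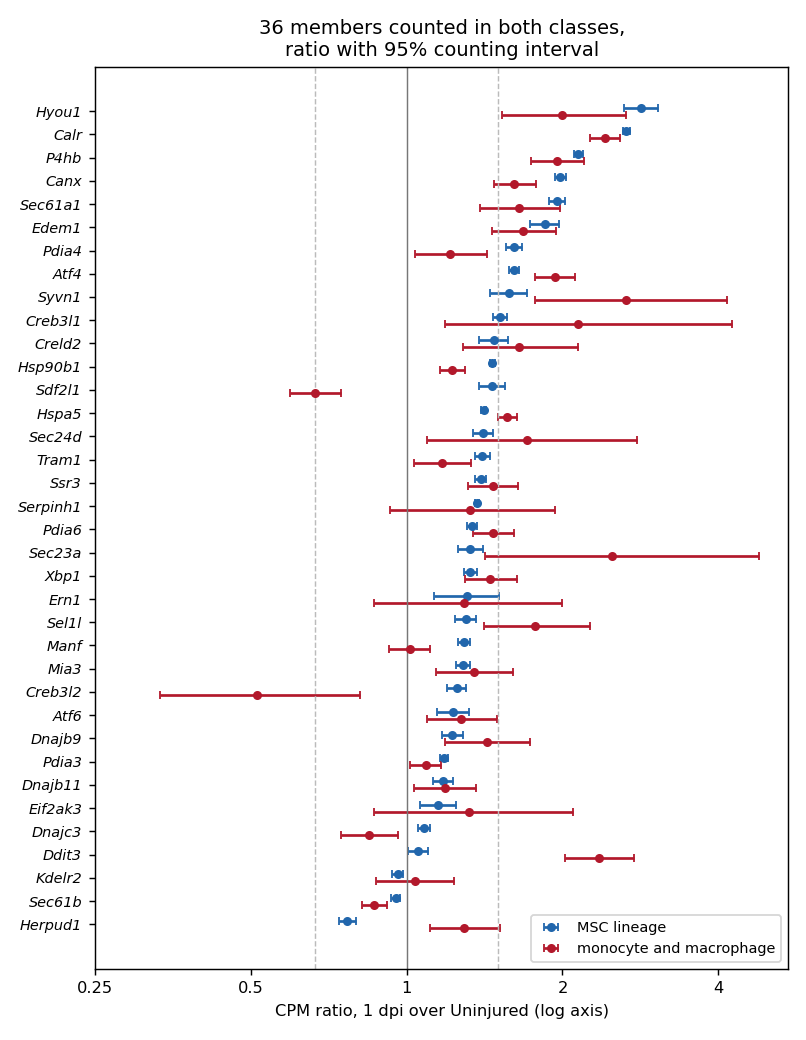
Ratio of CPM at 1 dpi to Uninjured for 36 members counted both in MSC lineage cells and in monocytes and macrophages, with 95% counting intervals on a log axis. Most points of both classes lie right of 1. *Ddit3* is near 1 in MSC lineage cells and at 2.35 in monocytes and macrophages, and *Sdf2l1* and *Creb3l2* lie on opposite sides of 1 in the 2 classes.

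Other immune classes of the same 2 libraries were read side by side. At 1 dpi against Uninjured, 14 of 30 members were higher in B cells (46.7%, against 37.9% of all genes), 12 of 25 in T cells (48.0%, against 40.7%) and 11 of 25 in NK cells (44.0%, against 29.2%), with 0 lower in each, against 8.01%, 5.8% and 9.46%. The UMI minimum is over both sums, and B cells had 547135 UMIs in Uninjured and 4406357 at 1 dpi. T and NK cells also had more UMIs at 1 dpi. Genes could thus be counted mainly through 1 dpi, where they were higher, and this holds for all genes too. *Hyou1* in B cells had 5 and 135 UMIs. These counts are therefore given as a description, and none relative to the median gene stands beside them. *Calr* had ratios of 2.05, 2.04 and 2.97 in B, T and NK cells and *Canx* 2.20, 1.95 and 2.48. *Sec61b* was below 1 in all of them, with 0.725, 0.676 and 0.755. *Ddit3* was 0.762, 0.768 and 0.768 in these classes. The same 2 libraries gave every one of these ratios and those of MSC lineage cells and of monocytes and macrophages, so they are not independent of each other, and a difference between the libraries as such cannot be told apart from injury.

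Plasma cells, 48 in all libraries together, were compared with 2082 B cells after leaving out immunoglobulin genes, which held 56.3% of all UMIs in plasma cells and 0.996% in B cells. Of 32 members 26 were at least 1.5-fold higher in plasma cells (81.3%, against 16.4% of 6579 genes) and 0 lower (against 48%). With immunoglobulin left in the total, 20 were higher (62.5%, against 3.87%) and 6 lower (18.8%, against 83.7%). *Xbp1*, the transcription factor that plasma cells depend on, was at 2733 CPM against 62.9 CPM, a ratio of 43.4 (38.4 to 49.2). *Edem1* and *Sdf2l1* both had 21.3 (18.4 to 24.8 and 16.6 to 27.3), *Creld2* 18.8 (14.3 to 24.7) and *Hsp90b1* 12.8 (11.97 to 13.6). *Atf4* with 1.05 (0.884 to 1.24) and *Ddit3* with 1.27 (0.891 to 1.77) had intervals that held 1. *Chac1* had 18 UMIs in 6 of 18 plasma cells at 1 dpi, with up to 8 in a cell, against 1 UMI in 1353 B cells of that library. In that library alone, with immunoglobulin left in, 15 of 31 members were higher in plasma cells (48.4%, against 3.36%) and 5 lower (16.1%, against 83.5%).

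Granulocyte progenitors (*Mpo*, *Elane*, *Prtn3*), cells that build up granule proteins, numbered 3 in Uninjured, 186 at 1 dpi, 273 at 3 dpi and 0 at 7 dpi. Set against the 471 neutrophils of the 1 dpi library, 21 of 30 members were higher (70.0%, against 46.4% of all genes) and 2 lower (6.67%, against 24.1%), at median UMIs of 21329 and 4258. *Sdf2l1* was at 131.7 against 6.64 CPM, a ratio of 19.8 (12.3 to 34.3), *Pdia4* 11.9 (7.22 to 21.1), *Calr* 9.65 (8.48 to 11.02) and *Pdia6* 9.17 (7.24 to 11.8). *Dnajb9* with 0.660 and *Eif2ak3* with 0.542 were lower. At 3 dpi, 21 of 28 were higher (75%, against 48.7%) and 1 lower (3.57%, against 24.3%), with *Calr* at 13.4 (10.8 to 16.7).

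Plasmacytoid dendritic cells had the highest *Herpud1* of the classes with at least 20 cells at 1 and 3 dpi, 672 CPM (604 to 745) from 55 cells and 770.5 CPM (693 to 854) from 91 cells. B cells came next, at 242 and 517 CPM. Against dendritic cells at 3 dpi, 13 of 25 members were higher (52.0%, against 25.2% of all genes) and 1 lower (4%, against 22.8%), with *Herpud1* at 3.78 (3.25 to 4.40) and *Xbp1* at 2.60 (2.10 to 3.21). At 1 dpi it was 6 of 23 (26.1%, against 27.4%) and 3 lower (13.0%, against 23.6%). Myogenic cells at 3 dpi, 202 cells, had 15 of 27 members higher than the 180 cells in Uninjured (55.6%, against 32.2%) and 3 lower (11.1%, against 14.1%). *Calr* was at 655 against 191 CPM there, a ratio of 3.43 (3.00 to 3.93), and *Ddit3* had 0.444 (0.316 to 0.621). The state of these cells differed too, with the satellite cell gene *Pax7* at 171 against 433 CPM and *Myod1*, of committed myoblasts, at 548 against 191 CPM. Other markers of the class, *Myog* and *Mymk*, were lower in CPM at 3 dpi, at 578 against 1488 CPM and 82.3 against 245 CPM. They were detected in more cells there, 30.7% against 18.9% and 21.8% against 15%. The markers thus give no single direction, and the part of cell state in the ratios was not tested.

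Over 45 sums of a class in a library with at least 50 cells, pairs of members with the most similar profiles were *Pdia3* and *Pdia6* (Pearson's r of 0.92 on log2 CPM with 10 added), *P4hb* and *Ssr3* (0.92), *Hsp90b1* and *Pdia4* (0.90) and *Serpinh1* and *Kdelr3* (0.90). *Ddit3*, *Chac1* and *Dnajb9* had a median r with the other members of −0.19, −0.22 and −0.22. That of *Chac1* rests on few counts, with 0 UMIs over all T cells and all NK cells and 1 UMI over all B cells. These sums share libraries, cells of related types and depth, and r is given as a description.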

How the data were processed

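The authors sequenced 10x libraries and deposited raw UMI counts per gene and cell, 1 matrix per library. The submitters' processing notes name Cell Ranger 5.0.0 with STAR, Seurat 3.1.1 and the mm10 build. They also name a down-sampling of reads when libraries were combined. The sources used here do not say if the deposited matrices were made before that step. Total counts per library were 112317902, 91146335, 116346301 and 129007669 UMIs for Uninjured, 1, 3 and 7 dpi.

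From these counts, cells within 2 SD of the mean log10 UMIs and log10 genes and with at most 10% mitochondrial UMIs were kept, and the 7.5% of cells with the highest Scrublet doublet scores (scanpy 1.11.5) were left out. The automatic Scrublet threshold marked 372, 278, 0 and 0 cells and was not used. Each cell was gated by a fixed set of markers with at least 3 detected and no tie, other than between the MSC lineage and cartilage lists. Classes other than immune cells also had no *Ptprc* UMI. UMIs were summed per class and library (Python 3.11.15, numpy 2.4.6, pandas 2.3.3). A level has an exact Poisson 95% interval and a ratio a conditional exact binomial one (scipy 1.17.1), both for counting error only. A gene was counted in a comparison with at least 100 UMIs over both sums and called past 1.5-fold. UMIs of 3 were taken as the floor of detection. Division by the total means that a few abundant genes can shift all others, so ratios to the median gene were also given.

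All 40 members were described. Of each further list, genes were named from the 4 with the largest log2 ratio, with at least 100 UMIs in the higher and 10 in the lower sum. The members and lists were chosen with earlier results of these data known. Alternatives were no cell filter, doublets left in, a stricter gate, thinning to 1000 UMIs, equal weight per cell, the top 50 genes left out of the total, the median gene set to 1, no UMI minimum and a 2-fold limit. A gate on *Prrx1*, *Col1a1* and *Ptprc* as in the study, and leaving out MSC lineage cells with 4 or 5 cartilage markers, were added after seeing the data. Promoters came from RefSeq on GRCm38.p6.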

Additional observations from a re-analysis of the deposited data

Results flagged for a closer look

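Of 36 members counted in both MSC lineage cells and monocytes and macrophages, 4 had ratios of 1 dpi to Uninjured on opposite sides of 1, with counting intervals that did not hold 1 in either class (11.1%, against 7.73% of 7917 genes counted in both). *Creb3l2* stood at 1.249 in MSC lineage cells and 0.514 in monocytes and macrophages, *Dnajc3* at 1.08 and 0.847, *Herpud1* at 0.768 and 1.29, and *Sdf2l1* at 1.46 and 0.6666. Relative to the median gene *Dnajc3* was below 1 in both classes, at 0.967 and 0.717. The differences between the classes were not tested, since each condition was 1 library.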

How the results depend on the processing

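Each condition was 1 library of pooled muscles, so counting intervals leave out the spread between animals and no library could be left out. No paired analysis was possible because no condition had a replicate. The alternatives were run on each step in time in MSC lineage cells and on chondrocyte-like over MSC lineage cells. They were also run on 1 dpi over Uninjured in monocytes and macrophages. The other comparisons above were not put through them. Of the ratios of single members under the alternatives, 1015 stayed within the main interval and 515 moved outside it, and 0 of those past 1.5-fold changed direction. The summed level was less stable. At 3 over 1 dpi in MSC lineage cells its ratio of 1.08 turned to 0.984 with thinned cells and 0.979 with equal weight per cell, and at 7 over 3 dpi 0.901 turned to 1.003 with thinned cells and 1.01 with equal weight. The cause was not tested.

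The ratio of 1 dpi to Uninjured in MSC lineage cells, 1.42, was 1.31 with no cell filter, 1.37 with thinned cells, 1.38 with equal weight, 1.27 with the median gene set to 1 and 1.45 with the gate of the study. The 3 over 1 dpi ratio was 1.13 with no filter, 1.0752 with doublets left in, 1.05 without the top 50 genes and 1.1198 with the median gene set to 1. The 7 over 3 dpi ratio was 0.939 without the top 50 genes, 0.963 with the median gene set to 1 and 0.893 with the gate of the study. For chondrocyte-like over MSC lineage cells, 1.08 became 1.083 with the stricter gate, 1.115 with thinned cells, 1.109 with equal weight, 1.10 without the top 50 genes and 1.17 with the median gene set to 1. In monocytes and macrophages 1.40 became 1.357 with thinned cells, 1.37 with equal weight, 1.35 without the top 50 genes and 1.19 with the median gene set to 1.

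Counts of members past the fold moved as follows. No share of all genes under the same alternative stands beside them, so they describe the members only. With the median gene set to 1, 6 were higher in place of 11 at 1 dpi in MSC lineage cells, 1 in place of 0 at 7 over 3 dpi and in chondrocyte-like cells, and 9 in place of 15 in monocytes and macrophages. At a 2-fold limit 3 were higher and 0 lower at 1 dpi in MSC lineage cells, 0 higher and 1 lower at 3 over 1 dpi, 3 lower at 7 over 3 dpi, and 5 higher and 0 lower in monocytes and macrophages. With thinned cells 2 were higher at 3 over 1 dpi, 4 at 7 over 3 dpi and 8 in monocytes and macrophages, where 1 was lower in place of 2. Equal weight gave 4 and leaving out the top 50 genes 1 higher at 7 over 3 dpi, and 1 was higher in chondrocyte-like cells with no filter and with no UMI minimum.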
